A study of Mus musculus with 18 samples.

Results

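The genes of glycolysis and of glucose and lactate transport were examined in epidermal cells from mice with and without Zfp36 in their keratinocytes, in mock skin, carcinogen-treated skin and skin tumors. The members were 44 gene symbols taken from the pathway, and a gene belonged to the module where its name in the count table was one of these symbols. All 44 symbols were found, under 45 of the 52636 gene IDs of the table, because Aldoa was listed under 2 IDs. ENSMUSG00000030695 held nearly all Aldoa counts and is the gene called Aldoa here, whereas ENSMUSG00000114515 reached at most 2.27 CPM (counts scaled to library size) and was too low to be tested in any comparison. The table's Pgm1 (ENSMUSG00000029171, chromosome 5) and Pgm2 (ENSMUSG00000025791, chromosome 4) bear each other's name in the GENCODE annotation, and the table's names are kept.

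Glycolysis splits glucose into pyruvate. Slc2a transporters bring glucose into the cell, hexokinases trap it by phosphorylation, phosphofructokinase makes the committed step and is switched on by fructose 2,6-bisphosphate, and the enzymes from aldolase to pyruvate kinase yield ATP. Lactate dehydrogenase turns pyruvate into lactate, which leaves or enters through Slc16a transporters with their chaperone basigin, while the pyruvate dehydrogenase kinases hold pyruvate back from mitochondria. Epidermis is known for a high glycolytic flux, and the raised glucose uptake and lactate release of tumors is known as the Warburg effect.

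Zfp36 encodes tristetraprolin, an RNA-binding protein that recognises AU-rich elements and promotes decay of the messages that carry them. Mice were C57BL/6 littermates, 8 weeks old at the start, and all of them carried loxP-flanked Zfp36 alleles. The fl/fl controls (FlFl in the labels) had no Cre, and in the ΔEP mice (DK14 in the labels) a Cre transgene under the human keratin 14 promoter deleted the gene in keratinocytes and in other epithelia where that promoter is active, while other cells of the skin kept it. Treated skin had received the carcinogen DMBA on days 0 and 3 and then the tumor promoter TPA 2 times per week for between 12 and 40 weeks, tumors were papillomas of such mice, and mock skin came from mock-treated animals. Each genotype and stage had 3 libraries, apart from mock ΔEP, where the columns of replicates 2 and 3 were identical and were counted as 1 library, leaving n = 2. The labels name whole skin as the material, but the study sorted EpCAM-positive cells negative for CD45, CD140a and CD31, so the values describe an epithelial fraction. In such bulk samples, fewer cells of a type and less RNA per cell cannot be told apart.

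The 17 libraries held between 2808550 and 9617985 counts. Tumor fl/fl replicate 1 had the lowest total, the highest share of ribosomal RNA (21.3%) and the fewest genes with a count (19219), and replicate 1 of both mock groups stood apart from the other mock libraries, with 449 and 637 CPM of the hair follicle keratin Krt25 against at most 1.8 CPM. Zfp36 was at 152 to 713 CPM in the fl/fl libraries and at 10 to 38.4 CPM in the ΔEP libraries, as the labels state. All 6 keratinocyte markers (Epcam, Krt5, Krt14, Itga6, Col17a1, Trp63) had counts in every group, and their summed level was 3190 to 16600 CPM in mock and treated skin, 8920 to 32500 CPM in fl/fl tumors and 25600 to 26900 CPM in ΔEP tumors. Within the fl/fl tumors some of these markers divided as many members did. Krt14 was at 15600, 3860 and 4150 CPM in replicates 1, 2 and 3, against 10900 to 11500 CPM in ΔEP tumors. Krt5, Itga6 and Col17a1 were also highest in replicate 1. Epcam went the other way, at 176, 464 and 344 CPM, and Trp63 did not divide, at 592, 608 and 485 CPM. Summed fibroblast markers, all 6 with counts, were at 375 to 1670 CPM in mock and treated skin and at 30.3 to 385 CPM in tumors. Leukocyte markers summed to 9.62 to 30.2 CPM in mock skin, 9.77 to 28.8 CPM in treated fl/fl skin, 11.6 to 176 CPM in treated ΔEP skin, 16.4 to 32.5 CPM in fl/fl tumors and 59.6 to 86.5 CPM in ΔEP tumors, with 6 of 7 detected in each group of tumors and most of the tumor sum in Cd74. Ptprc, which defines leukocytes, was at most 1.5 CPM in tumors, Cd3e was at 0 in the fl/fl tumors and C1qa was at 0 in the ΔEP tumors. Of the hair follicle markers, Krt25 was at 124 to 379 CPM in treated skin and 0.223 to 14 CPM in tumors. Krt27, Krt71, Lhx2 and Lgr5 were also lower in every tumor than in every treated library, whereas Sox9 was higher. Summed melanocyte markers were at 47.5 to 324 CPM in treated skin and 8.82 to 35.2 CPM in tumors. The part of these marker shifts in the results was not tested.

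A message that tristetraprolin binds usually carries the heptamer TATTTAT in its 3′ untranslated region, so sites are shown for members on which the results turn, with those that were higher in tumors before those that were lower. Searched on the sense strand of the longest annotated 3′ untranslated region (GENCODE M21), the heptamer was found in 16 of the 45 member gene IDs, against 27.6% of 20939 genes, and the core ATTTA in 26 of 45 against 65.2%. Below, the capitals mark the heptamer, or overlapping heptamers, in the 3′ untranslated region on the GRCm38 build.
Pfkfb3, chr2:11472049-11472071, minus strand: atgtgcTATTTATTTATttaata
Slc16a3, chr11:120958184-120958202, plus strand: cgctcaTATTTATttcaca
Slc2a1, chr4:119137189-119137207, plus strand: ggaagaTATTTATatattt
Hk2, chr6:82726568-82726586, minus strand: gtaatgTATTTATatgttc
Pgk1, chrX:106203507-106203525, plus strand: ggcgtcTATTTATattctg
Pdk4, chr6:5483492-5483510, minus strand: ccctatTATTTATgaaccc
Slc2a12, chr10:22702770-22702788, plus strand: ggaccaTATTTATttagaa
Eno2, chr6:124760763-124760791, minus strand: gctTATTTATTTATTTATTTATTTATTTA

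Eno2, at 2.5 CPM or less in every library and 0.152 to 0.669 CPM in tumors, held 10 heptamers in overlapping runs that go on past the stretch shown. Slc2a12 held 3 apart from each other, and Pfkfb3 held 2 that overlap. Both members called lower and members called higher thus carried the heptamer. The heptamer was not found in the 3′ untranslated regions of Ldha, Ldhb, Pkm, Eno1, Gapdh or Slc16a1. A match is a description of letters and not a shown binding site.

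Genes of this pathway are also known targets of HIF-1, a transcription factor that binds around the core ACGTG or GCGTG. Promoter windows of equal length around each start (RefSeq, GRCm38) were matched for 42 of the 44 members, with 61 windows, and none was matched for Slc2a3 and Bsg. On both strands ACGTG was found in 27 of the 61 windows, belonging to 23 members, against 19.6% of 32851 promoters, and GCGTG in 30 of 61, belonging to 24 members, against 32.4%. The palindrome CACGTG, which contains ACGTG, was found in 7 windows, each of a different member, against 7.15% of all promoters. Among promoters of protein-coding genes the shares were 20.9% for ACGTG, 38.5% for GCGTG and 7.84% for CACGTG. Some windows of a gene overlap, so a site of Aldoa, Eno1 or Pfkm can be counted more than once. Windows with ACGTG are shown for the transporter, enzyme and regulator genes on which the results turn most, with the core in capitals, and Pdk2, which was lower in tumors, is shown beside those that were higher.
Slc2a1, chr4:119108699-119108723, plus strand: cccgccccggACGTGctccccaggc
Pfkfb3, chr2:11502128-11502152, minus strand: ccttctctccACGTGaaagggggct
Pgk1, chrX:106186940-106186964, plus strand: gtcgtgcaggACGTGacaaatggaa
Pgam1, chr19:41911747-41911771, plus strand: ctccttgcttACGTGcgctccgtga
Ldha, chr7:46845747-46845771, plus strand: cccagcctacACGTGggttcccgca
Slc16a1, chr3:104638674-104638698, plus strand: gcgagctgcgACGTGactggtcggt
Slc16a3, chr11:120949030-120949054, plus strand: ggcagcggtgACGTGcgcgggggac
Pdk2, chr11:95041482-95041506, minus strand: gaggagagccACGTGtcgaagcgca

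The core therefore stood in the window of a gene that was lower in tumors as well as in windows of genes that were higher.

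As a whole, the module took a larger share of all counts in every tumor library than in any library of skin. The members held 0.273%, 0.288% and 0.293% of counts in mock fl/fl libraries and 0.23% and 0.244% in mock ΔEP libraries. Treated fl/fl libraries gave 0.33%, 0.337% and 0.264%, and treated ΔEP libraries 0.294%, 0.313% and 0.452%. Fl/fl tumors gave 0.827%, 0.545% and 0.523%, and ΔEP tumors 1.2%, 0.901% and 1.1%. The ΔEP tumors thus did not overlap the fl/fl tumors, although fl/fl replicate 1 came near the lowest ΔEP tumor, and treated ΔEP replicate 3 was the highest library of skin. These shares use counts as deposited, with no scaling.

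**Figure D1:**
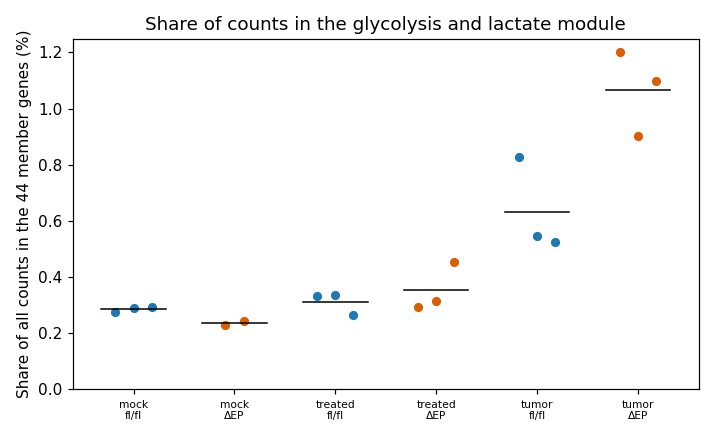
Share of all counts in the 45 member gene IDs, in percent, for each of the 17 libraries by stage and genotype, each point 1 library. Tumors lie at 0.523% to 1.2% and all libraries of mock and treated skin at 0.23% to 0.452%.

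Tumors were first set against the treated skin beside them, within each genotype. This asks what differed between sorted cells of papillomas and of adjacent skin after the same exposure. Hair follicle and melanocyte markers also differed between these groups, as given above. A gene was called higher or lower where edgeR's quasi-likelihood test gave a Benjamini-Hochberg adjusted p under 0.05 over all genes tested and the fold change exceeded 2. In fl/fl mice 38 of the 45 member IDs passed the low-count filter, 16 were called higher (42.1% of those tested, against 7.5% of all genes) and 4 lower (10.5% against 10.5%). In ΔEP mice 37 were tested, 22 were called higher (59.5% against 10.5% of all genes) and 3 lower (8.11% against 15.5%). The median log2 fold change was 0.87 in fl/fl and 1.27 in ΔEP mice, beside −0.02 and −0.03 over all genes tested. Every called member had groups that did not overlap. With libraries scaled by their totals alone, the median of all genes moved to −0.50 and −0.47, and the members called were 9 higher and 5 lower in fl/fl and 17 higher and 5 lower in ΔEP mice. That scaling called 3697 and 4997 genes in all, against 2764 and 3973 in the main fits. The fl/fl count of 20 also fell to 8, 9 and 10 without treated fl/fl replicates 1, 2 and 3. The genes called in all fell from 2764 to 1106, 1497 and 1517 in these fits.

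**Figure D2:**
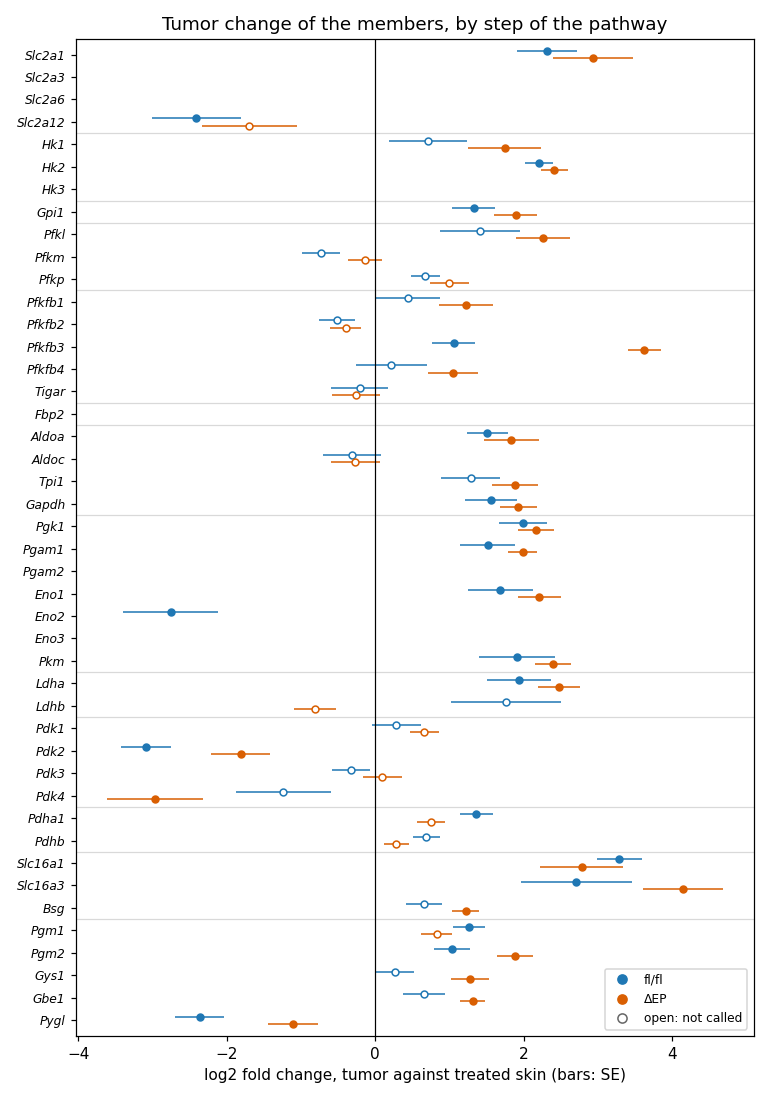
Log2 fold change of each tested member between tumors and treated skin, with its standard error, in fl/fl (blue) and in ΔEP mice (orange), ordered by role, with open points for members not called. Most of the glycolytic enzymes from Slc2a1 to Ldha lie to the right of 0 in both genotypes, the transporters farthest to the right are Slc16a1 in fl/fl (3.28) and Slc16a3 in ΔEP mice (4.14), and Pdk2, Pdk4, Pygl and Slc2a12 lie to the left.

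Of the 4 glucose transporter members, Slc2a1 (GLUT1, the main glucose transporter of epidermis) had the highest mean RNA level per kilobase of exon over all libraries. Its level was 89.7, 100 and 52.9 CPM in treated fl/fl skin and 668, 284 and 279 CPM in fl/fl tumors. In ΔEP mice it was 46.1, 86.7 and 254 CPM in treated skin and 1080, 895 and 1130 CPM in tumors. All tumors lay above all treated skin, and all ΔEP tumors above all fl/fl tumors. The log2 fold change from treated skin was 2.31 in fl/fl (SE 0.40, edgeR adjusted p = 0.00763) and 2.93 in ΔEP mice (SE 0.54, edgeR adjusted p = 0.00422). The fl/fl call was kept in all 14 alternatives, of which adjusted p alone could not lose it. Slc2a12, a transporter of lower abundance, went the other way, from 12.9, 22.9 and 5.08 CPM in treated skin to 3, 3.2 and 1.31 CPM in tumors of fl/fl mice (log2 fold change −2.41, SE 0.60, edgeR adjusted p = 0.025), a call lost in 5 of 14 alternatives. In ΔEP mice it was at 2.15, 8.59 and 14.3 CPM in treated skin and 2.45, 4.16 and 1.51 CPM in tumors, where the groups overlapped and the difference of −1.70 did not pass (SE 0.64, edgeR adjusted p = 0.0665). The neuronal-type transporter Slc2a3 and the lysosomal Slc2a6 stayed at or below 2.94 and 3.57 CPM in every library.

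Hk2, the inducible hexokinase, had the highest level per kilobase of the hexokinases over all libraries, although Hk1 exceeded it in mock fl/fl replicates 2 and 3. Hk2 was at 87.5, 78.9 and 70.4 CPM in treated fl/fl skin and at 375, 417 and 323 CPM in fl/fl tumors, and at 98.4, 107 and 134 CPM in treated ΔEP skin and 588, 674 and 669 CPM in ΔEP tumors. No groups overlapped, and the log2 fold change was 2.20 (SE 0.18, edgeR adjusted p = 0.00116) in fl/fl and 2.41 (SE 0.19, edgeR adjusted p = 0.000176) in ΔEP mice. Hk1, the constitutive hexokinase, was at 91, 33.2 and 25.2 CPM in fl/fl tumors, overlapping the 34.4, 39.6 and 14.6 CPM of treated fl/fl skin, and at 105, 102 and 110 CPM in ΔEP tumors against 9.48, 24.3 and 55.8 CPM in treated ΔEP skin. Only the ΔEP difference passed (1.74, SE 0.49, edgeR adjusted p = 0.0234, against 0.71, SE 0.52, adjusted p = 0.349 in fl/fl), and it was lost in 5 of 14 alternatives, 4 of them fits without a library. Hk3, the myeloid hexokinase, was at most 0.979 CPM in any library and was not tested. Gpi1, glucose phosphate isomerase, rose in both genotypes, from 161, 177 and 108 to 538, 288 and 311 CPM in fl/fl (1.32, SE 0.29, edgeR adjusted p = 0.0173) and from 116, 120 and 231 to 688, 486 and 656 CPM in ΔEP mice (1.89, SE 0.29, adjusted p = 0.00214). Its fl/fl call was lost in 5 of 14 alternatives.

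At the phosphofructokinase step the platelet-type subunit Pfkp was the most abundant per kilobase, and it did not reach the fold threshold. It was at 105, 161 and 127 CPM in treated and 204, 225 and 208 CPM in tumor fl/fl libraries, and at 73.1, 135 and 152 CPM and 254, 245 and 268 CPM in ΔEP libraries. The liver-type subunit Pfkl was at 21.9, 28.4 and 18.8 CPM in treated fl/fl skin, and in fl/fl tumors replicate 1 stood alone at 126 CPM beside 28.2 and 36.3 CPM. In ΔEP mice Pfkl rose from 15.4, 22.1 and 46.8 CPM to 147, 116 and 165 CPM (2.26, SE 0.37, edgeR adjusted p = 0.00258), and fl/fl replicate 1 lay within that range. The muscle-type Pfkm was at 7.19 to 13.8 CPM in every library but was never called.

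Pfkfb3 (ENSMUSG00000026773, chr2:11471433-11554077, minus strand, GRCm38) makes fructose 2,6-bisphosphate, the activator of phosphofructokinase, and had the largest difference above 0 between genotypes in tumors among the tested members. The gene was at 11.1, 18 and 16.3 CPM in mock fl/fl, 9.98 and 10.1 CPM in mock ΔEP, 12.9, 16.2 and 13.4 CPM in treated fl/fl and 9.66, 12.4 and 13.8 CPM in treated ΔEP libraries. Fl/fl tumors were at 44, 23.6 and 23.5 CPM and ΔEP tumors at 179, 152 and 141 CPM, so that all tumors lay above all skin and all ΔEP tumors above all fl/fl tumors. The counts behind these tumor values were 88, 155 and 72 in fl/fl and 804, 843 and 743 in ΔEP. Against treated skin the log2 fold change was 1.06 in fl/fl (SE 0.29, edgeR adjusted p = 0.0336), which was kept in 6 of 14 alternatives, and 3.62 in ΔEP mice (SE 0.22, edgeR adjusted p = 0.000165). The related Pfkfb1 and Pfkfb4 were called in ΔEP mice at low levels, and these calls were lost in 7 and 6 of 14 alternatives. Pfkfb1 went from 3.04, 1.82 and 2.02 to 4.24, 5.07 and 7.76 CPM (1.22, SE 0.37, edgeR adjusted p = 0.0309) and Pfkfb4 from 5.19, 6.64 and 5.39 to 7.36, 14.3 and 16.7 CPM (1.04, SE 0.33, adjusted p = 0.0379). In fl/fl libraries Pfkfb1 was at 2.6, 1.53 and 2.22 CPM in treated skin and 3, 2.28 and 3.92 CPM in tumors, and Pfkfb4 at 4, 3.06 and 4.56 CPM and 1.5, 5.78 and 5.88 CPM, with overlap in both. Pfkfb2, the cardiac form, at 14 to 60.2 CPM over all libraries, and Tigar, a fructose 2,6-bisphosphatase, at 4.35 to 13.3 CPM, were not called against treated skin. Fbp2, the muscle fructose bisphosphatase that works against glycolysis, was at most 0.783 CPM in every library.

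The triose and payoff enzymes moved together, and all of Aldoa, Gapdh, Pgk1, Pgam1, Eno1 and Pkm were called higher in both genotypes. Of 14 alternatives, the fl/fl call was lost in 5 for Pgam1, 4 for Eno1 and Pkm, 3 for Gapdh, 1 for Aldoa and 0 for Pgk1. The ΔEP calls of these genes were kept in all 14. Aldoa, the ubiquitous aldolase, went from 209, 273 and 144 to 770, 514 and 525 CPM in fl/fl and from 129, 208 and 386 to 1040, 711 and 967 CPM in ΔEP mice (1.51, SE 0.27, edgeR adjusted p = 0.00886, and 1.83, SE 0.37, adjusted p = 0.00608). Tpi1, triose phosphate isomerase, went from 85.2, 100 and 56 to 332, 114 and 155 CPM in fl/fl, which missed the threshold (1.28, SE 0.40, edgeR adjusted p = 0.0503), and from 71.9, 66.2 and 149 to 414, 304 and 401 CPM in ΔEP mice (1.89, SE 0.31, adjusted p = 0.00263). In fl/fl mice tumor replicate 1 was the highest of the 3 tumors for each of these enzymes. Gapdh, which oxidises glyceraldehyde 3-phosphate and is often used as a reference gene, was at 292, 335 and 242 CPM in treated fl/fl skin, 1400, 560 and 645 CPM in fl/fl tumors, 384, 241 and 421 CPM in treated ΔEP skin and 1380, 1170 and 1670 CPM in ΔEP tumors. Its log2 fold change was 1.56 (SE 0.36, edgeR adjusted p = 0.0188) and 1.93 (SE 0.25, adjusted p = 0.00111), so it did not hold level between skin and tumors.

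Pgk1, phosphoglycerate kinase, makes the first ATP of the pathway. It was at 69.3, 75.4 and 62.8 CPM in treated fl/fl skin and 440, 201 and 203 CPM in fl/fl tumors, and at 88.7, 80.8 and 134 CPM and 517, 373 and 549 CPM in ΔEP mice (1.99, SE 0.32, edgeR adjusted p = 0.006, and 2.16, SE 0.24, adjusted p = 0.000659). Pgam1, the main phosphoglycerate mutase, was at 23.3, 25.1 and 26.7 CPM and then 123, 46.6 and 51.9 CPM in fl/fl, and at 40.4, 28.4 and 40.6 CPM and then 145, 136 and 179 CPM in ΔEP mice (1.51, SE 0.37, edgeR adjusted p = 0.0236, and 1.98, SE 0.20, adjusted p = 0.000433). Eno1, the ubiquitous enolase, was at 171, 177 and 91.3 CPM and then 832, 309 and 303 CPM in fl/fl, and at 158, 167 and 313 CPM and then 1050, 847 and 1230 CPM in ΔEP mice (1.68, SE 0.44, edgeR adjusted p = 0.0291, and 2.21, SE 0.29, adjusted p = 0.00119). For these 3 enzymes the tumors of each genotype lay wholly above treated skin. Pkm, pyruvate kinase, whose splice forms these gene counts do not separate, was the most abundant payoff enzyme per kilobase. It was at 344, 382 and 268 CPM in treated fl/fl skin, 2480, 654 and 696 CPM in fl/fl tumors, 387, 340 and 575 CPM in treated ΔEP skin and 2390, 2140 and 2720 CPM in ΔEP tumors. Its log2 fold change was 1.91 (SE 0.51, edgeR adjusted p = 0.031) and 2.39 (SE 0.24, adjusted p = 0.000444), and fl/fl replicate 1 lay within the ΔEP range. The brain and muscle isozymes Aldoc, Pgam2, Eno2 and Eno3 stayed at or below 9.79, 3.08, 2.5 and 2.4 CPM. Eno2 was nevertheless called lower in fl/fl tumors on few counts, 3 in all tumors against 40 in treated skin, a ratio of 0.139 with a 95% counting interval of 0.0274 to 0.435.

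Lactate formation divided its 2 genes. Ldha, the subunit favouring lactate, was at 248, 299 and 207 CPM in treated fl/fl skin and 1740, 589 and 612 CPM in fl/fl tumors, and at 284, 301 and 434 CPM and 2600, 1440 and 1960 CPM in ΔEP mice. It rose in both (1.93, SE 0.43, edgeR adjusted p = 0.0175, and 2.47, SE 0.29, adjusted p = 0.000728), and it led all lactate dehydrogenase signal per kilobase. Its fl/fl call was lost in 3 of 14 alternatives. Ldhb (chr6:142490249-142507957, minus strand), the subunit favouring pyruvate, was at 37.9, 33.7 and 29.2 CPM in treated fl/fl skin and split the fl/fl tumors into 12, 146 and 184 CPM. In ΔEP mice it was at 22.4, 38.1 and 44.7 CPM in treated skin and 24.7, 21.3 and 17.6 CPM in tumors. Neither difference was called: 1.76 in fl/fl (SE 0.74, edgeR adjusted p = 0.116) and −0.82 in ΔEP mice (SE 0.28, adjusted p = 0.049, below the fold threshold).

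Lactate transport held the largest log2 fold change among the members called higher in each genotype, Slc16a1 in fl/fl and Slc16a3 in ΔEP mice. Slc16a1 (MCT1, chr3:104638668-104658462, plus strand), which carries lactate either way, was at 60.4, 64.5 and 30 CPM in treated fl/fl skin and 470, 539 and 520 CPM in fl/fl tumors, and at 22.4, 54.4 and 147 CPM and 565, 494 and 557 CPM in ΔEP mice. All 6 tumors sat close together, well above skin (3.28, SE 0.30, edgeR adjusted p = 0.00121, and 2.78, SE 0.56, adjusted p = 0.00601). Slc16a3 (MCT4, chr11:120948480-120960868, plus strand), the exporter of glycolytic cells, was at 6.93, 4.59 and 4.82 CPM in treated fl/fl skin and 87, 12.2 and 16 CPM in fl/fl tumors. In ΔEP mice Slc16a3 was at 3.93, 6.9 and 18 CPM in treated skin and 201, 101 and 236 CPM in tumors. The tumors of both genotypes lay above their skin and the ΔEP tumors above the fl/fl tumors, with log2 fold changes of 2.71 (SE 0.74, edgeR adjusted p = 0.0336) and 4.14 (SE 0.54, adjusted p = 0.00115). The fl/fl call of Slc16a3 was lost in 3 of 14 alternatives. Bsg, the chaperone of both, was at 103, 139 and 107 CPM and then 255, 145 and 162 CPM in fl/fl, and at 106, 100 and 136 CPM and then 276, 256 and 315 CPM in ΔEP mice. It rose in ΔEP mice (1.22, SE 0.18, edgeR adjusted p = 0.00181) and stood at 0.66 in fl/fl (SE 0.24, adjusted p = 0.0836).

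**Figure D3:**
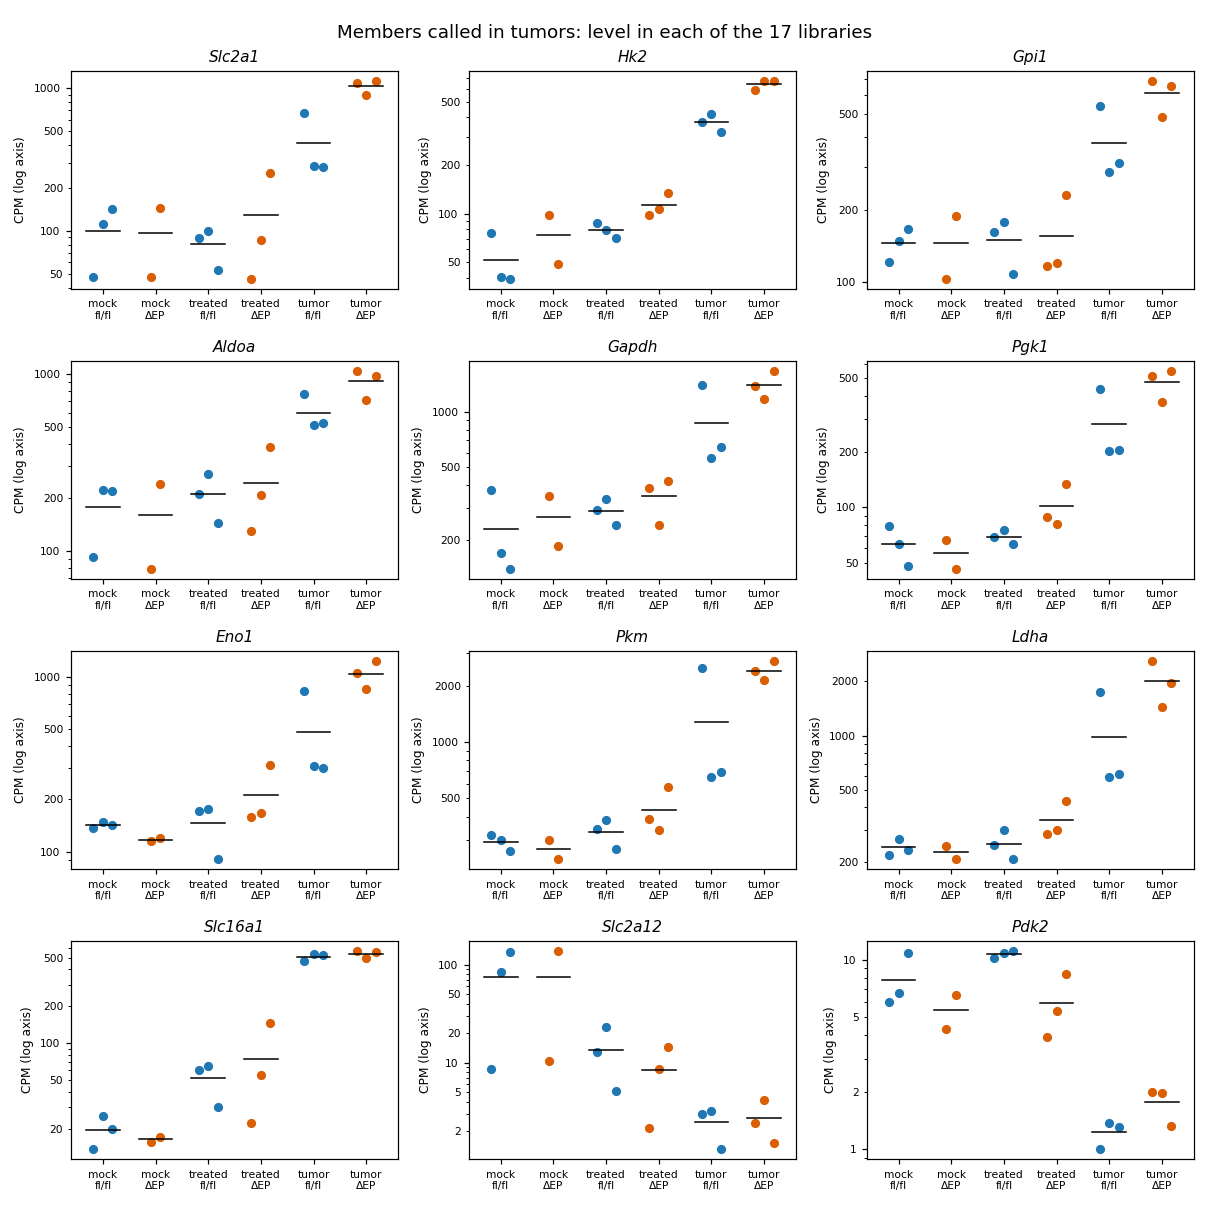
Level of 12 called members in CPM, on a log axis, by stage and genotype, with 1 point per library and a line at the group mean (fl/fl blue, ΔEP orange). The 6 tumor points of Slc16a1 sit together at 470 to 565 CPM, fl/fl replicate 1 stands above the other fl/fl tumors for Slc2a1, Gapdh, Pgk1, Eno1, Pkm and Ldha, and Slc2a12 and Pdk2 are lowest in tumors.

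At the entry of pyruvate into mitochondria, 2 of the 4 pyruvate dehydrogenase kinases, which switch the complex off, were called lower in tumors, Pdk2 in both genotypes and Pdk4 in ΔEP mice. Pdk2 was at 10.2, 10.9 and 11.1 CPM in treated fl/fl skin and 1, 1.37 and 1.31 CPM in fl/fl tumors, and at 3.93, 5.33 and 8.42 CPM and 2.01, 1.99 and 1.33 CPM in ΔEP mice (−3.09, SE 0.33, edgeR adjusted p = 0.00185, and −1.81, SE 0.40, adjusted p = 0.00876). Pdk4, the starvation-induced kinase, was at 37.9, 51.4 and 31.9 CPM in treated fl/fl skin and 1.5, 22.7 and 25.5 CPM in fl/fl tumors, and fell in ΔEP mice from 13.4, 39 and 40.4 to 8.47, 3.26 and 1.14 CPM (−2.97, SE 0.65, edgeR adjusted p = 0.00832, against −1.24, SE 0.64, adjusted p = 0.185 in fl/fl). Both groups of tumors lay below treated skin for both genes, with fl/fl tumor replicate 1 near the ΔEP tumors for Pdk4. Pdk1, the hypoxia-responsive kinase, was at 43.7 to 113 CPM in tumors against 48.3 to 66.2 CPM in treated skin and was not called. Pdk3, the most abundant kinase per kilobase, was at 41.1, 38.2 and 42.9 CPM in treated fl/fl skin and 45, 23.9 and 32 CPM in fl/fl tumors, and at 51, 31.7 and 33 CPM and 55.5, 34 and 41.7 CPM in ΔEP mice, with overlapping groups. Pdha1, the catalytic alpha subunit of the dehydrogenase, rose in fl/fl mice from 98.7, 91.4 and 86 to 184, 241 and 296 CPM (1.36, SE 0.22, edgeR adjusted p = 0.00613) and stood 0.75 higher in ΔEP mice, at 97.1, 99.4 and 145 against 217, 194 and 200 CPM, below the fold threshold (SE 0.19, adjusted p = 0.0157). Its partner Pdhb was at 88.3 to 117 CPM in tumors and 60.4 to 84.6 CPM in treated skin.

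Among the glycogen genes, the liver-type phosphorylase Pygl, which breaks glycogen down, was called lower in both genotypes, whereas the synthesis genes Gys1 and Gbe1 were called higher in ΔEP mice only and did not pass in fl/fl mice. Pygl was at 26.9, 34.1 and 21.2 CPM in treated fl/fl skin and 5, 7.31 and 3.27 CPM in fl/fl tumors, and at 22.4, 16.3 and 22.9 CPM and 8.47, 5.97 and 15.9 CPM in ΔEP mice (−2.37, SE 0.33, edgeR adjusted p = 0.00367, and −1.11, SE 0.34, adjusted p = 0.0334). The ΔEP call of Pygl was lost in 5 of 14 alternatives, all of them fits without a library. Gys1, glycogen synthase, was at 15.2, 17.7 and 22.4 CPM in treated and 59.5, 34.6 and 48.5 CPM in tumor ΔEP libraries (1.27, SE 0.25, edgeR adjusted p = 0.00588), and at 22.5, 21.6 and 20.5 CPM and 33.5, 18.4 and 28.1 CPM in fl/fl libraries, which overlapped. Gbe1, the branching enzyme, was at 19.5, 20.3 and 21.2 CPM and then 56.4, 50.8 and 54.5 CPM in ΔEP mice (1.31, SE 0.17, edgeR adjusted p = 0.00112), and at 18.3, 22.1 and 14.5 CPM and then 35.5, 19.9 and 33 CPM in fl/fl mice (0.66, SE 0.28, adjusted p = 0.125). Phosphoglucomutases link glucose 6-phosphate to glycogen and nucleotide sugars. Pgm2 of the table was at 17.7, 19.2 and 14.5 CPM and then 46.5, 29.2 and 32.3 CPM in fl/fl, and at 15.4, 14.6 and 24.6 CPM and then 66, 59.9 and 87.9 CPM in ΔEP mice (1.03, SE 0.24, edgeR adjusted p = 0.0203, kept in 6 of 14 alternatives, and 1.88, SE 0.25, adjusted p = 0.00117). Pgm1 of the table was at 11.6, 12.5 and 12.4 CPM and then 27, 35.8 and 26.1 CPM in fl/fl (1.27, SE 0.21, edgeR adjusted p = 0.00697), and at 12.7, 18.3 and 17.4 CPM and then 31.2, 28.9 and 32 CPM in ΔEP mice (0.83, below the fold threshold).

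Against mock skin, which asks what separated tumors from unexposed epidermis, the ΔEP mice again had more members called. In fl/fl mice 38 members were tested, 3 were called higher (7.89% against 2.22% of all genes) and 3 lower (7.89% against 1.88%), with a median log2 fold change of 1 against −0.05 over all genes. In ΔEP mice 38 were tested, 19 were called higher (50% against 7.05%) and 4 lower (10.5% against 7.22%), with a median of 1.40 against −0.06. The tumors here are the same libraries as above. The fl/fl count of 6 became 18 without mock fl/fl replicate 1, 1 without mock fl/fl replicate 2 or 3, and 2 without tumor fl/fl replicate 2 or 3, and DESeq2 gave 21. The genes called in all went from 632 to 3277, 30, 48, 77 and 69 in these fits, in that order, and to 2201 by DESeq2. The ΔEP count of 23 became 10, 8 and 9 without tumor ΔEP replicates 1, 2 and 3, while the genes called in all went from 2144 to 406, 101 and 216.

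Slc16a1 stood out on both sides, at 13.6, 25.6 and 19.7 CPM in mock fl/fl and 15.6 and 17.2 CPM in mock ΔEP libraries, far below every tumor (4.67, SE 0.33, edgeR adjusted p = 0.00319, and 4.94, SE 0.30, adjusted p = 0.0039). Slc16a3 was at 2.99, 8.81 and 9.44 CPM in mock fl/fl and 2.16 and 6.83 CPM in mock ΔEP libraries, and was called in ΔEP mice alone (5.27, SE 0.66, edgeR adjusted p = 0.0088, against 2.38, SE 0.83, adjusted p = 0.124). The 2 fl/fl calls beside Slc16a1 among the higher members were Hk2, at 75.7, 40.3 and 39.4 CPM in mock skin (2.80, SE 0.35, edgeR adjusted p = 0.0115), and Pgk1, at 79, 63.2 and 47.8 CPM (2.11, SE 0.39, adjusted p = 0.0331). Of 14 alternatives, this Hk2 call was lost in 3 and this Pgk1 call in 4. In ΔEP mice Pfkfb3 (3.88, SE 0.30, edgeR adjusted p = 0.00461), Slc2a1 (3.35, SE 0.53, adjusted p = 0.015), Hk2 (3.02, SE 0.39, adjusted p = 0.00977), Eno1 (3.06, SE 0.31, adjusted p = 0.00608), Pkm (3.07, SE 0.31, adjusted p = 0.00604), Ldha (3.06, SE 0.38, adjusted p = 0.00858) and Pfkl (3.08, SE 0.43, adjusted p = 0.0117) were each more than 3 higher on the log2 scale. The others called higher there were Gpi1, Aldoa, Tpi1, Gapdh, Pgk1, Pgam1, Bsg, Pgm1, Pgm2 and Gys1. Of 14 alternatives, the ΔEP calls of Gpi1, Aldoa, Bsg, Pgm1 and Gys1 were lost in 4. Those of Slc2a1, Pfkl, Gapdh and Pgm2 were lost in 3, that of Pgam1 in 2 and that of Hk2 in 1. Those of Slc16a1, Slc16a3, Pfkfb3, Tpi1, Pgk1, Eno1, Pkm and Ldha were kept in all 14.

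Slc2a12 ranged widely in mock skin, at 8.63, 84.4 and 134 CPM in fl/fl and 10.3 and 138 CPM in ΔEP libraries, the low value in each being replicate 1, the library with hair follicle keratin. Tumors of both genotypes, at 1.31 to 4.16 CPM, lay below all of these (−4.92, SE 0.99, edgeR adjusted p = 0.0405, and −4.84, SE 1.02, adjusted p = 0.0293, calls lost in 6 and 3 of 14 alternatives). Pygl was lower in both genotypes as well, from 29, 41.5 and 43 CPM in mock fl/fl and 28.1 and 39.9 CPM in mock ΔEP libraries (−2.86, SE 0.39, edgeR adjusted p = 0.0154, and −1.84, SE 0.45, adjusted p = 0.0415). Pdk2 was called lower in fl/fl (−2.66, SE 0.48, edgeR adjusted p = 0.0309, and −1.67, SE 0.44, adjusted p = 0.0507 in ΔEP), and Pdk4 in ΔEP mice, from 35.9 and 91.6 CPM (−3.99, SE 0.77, adjusted p = 0.0236). The Pdk2 call was lost in 6 of 14 alternatives and the Pdk4 call in 3. Slc2a3 was also called lower in ΔEP tumors on 8 counts against 16, a ratio of 0.212 with a 95% counting interval of 0.0786 to 0.525. This call was lost in 8 of 14 alternatives, DESeq2 among them.

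Treatment without a tumor gave no call among the members in either genotype. Of 42 members tested in fl/fl and 40 in ΔEP mice, 0 were called by edgeR's quasi-likelihood test between treated and mock skin, as were 0% of all genes tested in both, while 3 and 4 members had an unadjusted p under 0.05, beside 913 of 16601 and 763 of 15891 genes. DESeq2 and edgeR's exact test gave 0 members as well, beside 118 and 105 genes in all in fl/fl and 71 and 53 in ΔEP mice. When low counts were not filtered, 2 members were called in ΔEP mice, beside 212 genes in all. Leaving out mock fl/fl replicate 1 gave 6 calls in fl/fl mice, 2 higher against 7.97% of all genes and 4 lower against 7.16%. The genes called in all went from 0 to 2587 there, so calls were not particular to the members. Hk2 (1.02, SE 0.16, edgeR adjusted p = 0.0051) and Slc16a1 (1.23, SE 0.34, adjusted p = 0.036) were the higher members in that fit, and Slc2a12 (−3.03), Hk1 (−1.50), Gbe1 (−1.08) and Pfkfb2 (−1.02) the lower ones. The mock levels of Hk1, 7.52, 80.9 and 88.6 CPM in fl/fl and 7.55 and 58.2 CPM in ΔEP libraries, show the same gap between replicate 1 and the rest as Slc2a12.

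Isozymes were compared as shares of the summed CPM per kilobase within a family. A family held member genes only. The glucose transporters were Slc2a1, Slc2a3, Slc2a6 and Slc2a12, and the lactate transporters Slc16a1 and Slc16a3. Transporters outside the members, such as Slc16a7 and Slc2a9, did not enter these shares. Slc2a1 made up 54.9% to 83.8% of the glucose transporter members in mock skin and 98.2% to 99.8% in tumors, while Slc2a12 went from as much as 43.5% to at most 0.913%. Hk2 was 38.7% to 94.9% of the hexokinases in mock skin and 85.5% to 94.8% in tumors. Aldoa was at least 94.3% of the aldolases and Eno1 at least 91.2% of the enolases in every library, so these steps showed no exchange of isozymes.

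The families where the tumors themselves divided were those of Pfkl, Pfkfb3, Ldhb, Pdk4 and Slc16a3. Pfkl was 51.9%, 17.9% and 23.5% of the phosphofructokinases in fl/fl tumors and 50.1%, 45.1% and 51.3% in ΔEP tumors. Pfkfb3 was 66.1%, 38.6% and 41.7% of its family in fl/fl and 82.1%, 71.8% and 69.4% in ΔEP tumors, beside 14.8% to 32.8% in mock and treated skin. Ldhb was 1.43%, 34.3% and 38.8% of the lactate dehydrogenases in fl/fl tumors, 1.97%, 3.03% and 1.86% in ΔEP tumors, and 12.1% to 24.4% in mock and treated skin. For Pfkl, Ldhb and Pdk4, fl/fl replicate 1 sat with or beyond the ΔEP tumors, whereas for Pfkfb3 it lay between the other fl/fl tumors and the ΔEP tumors. Pdk4 was 1.3%, 29.6% and 25.6% of the kinases in fl/fl and 6.18%, 3.7% and 1.1% in ΔEP tumors. Slc16a3 was 13.4%, 1.85% and 2.5% of the sum of Slc16a1 and Slc16a3 in fl/fl and 22.9%, 14.6% and 26% in ΔEP tumors.

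**Figure D4:**
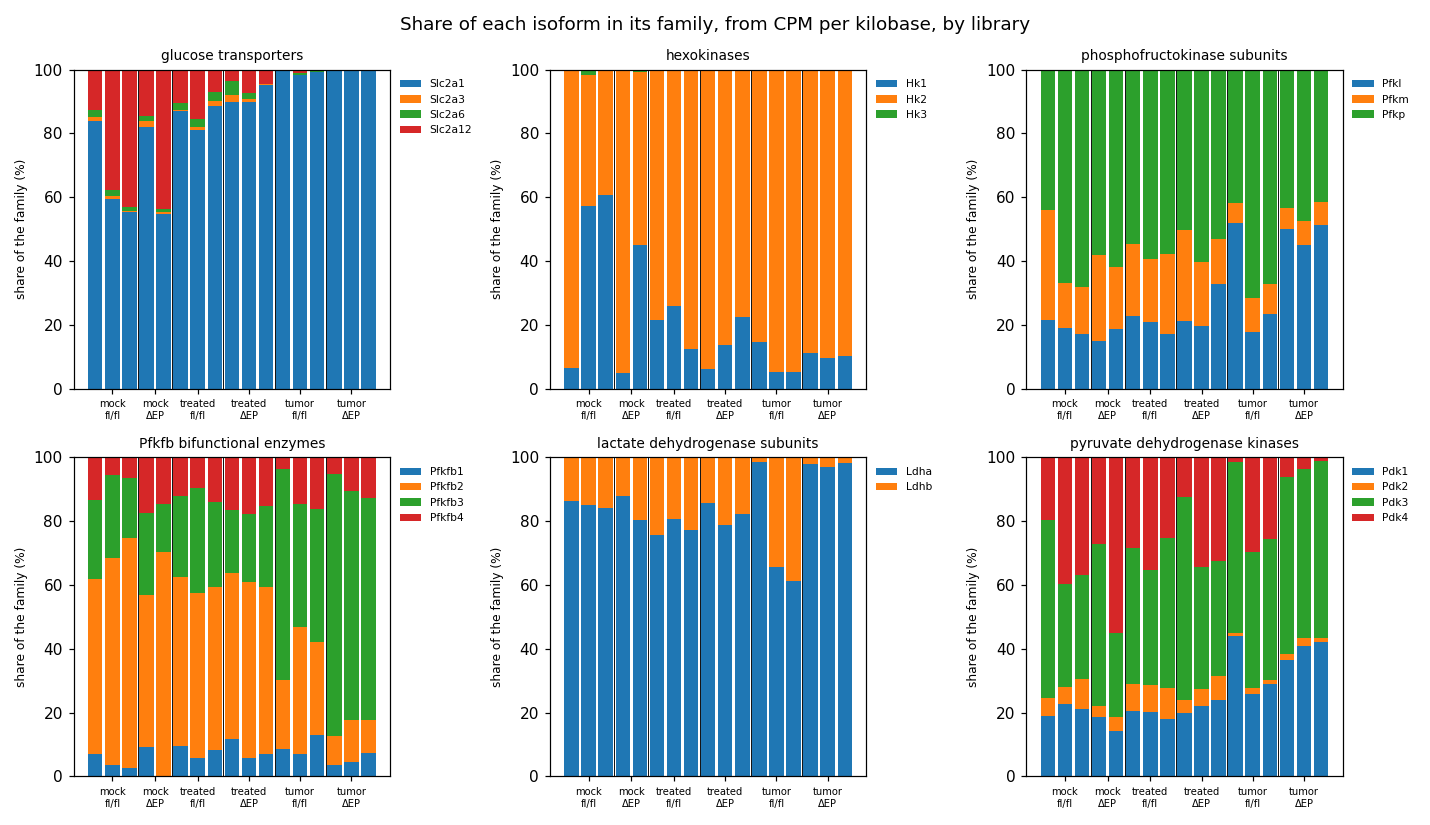
Share of each isozyme in its family of member genes, in percent of the summed CPM per kilobase, for 6 families. Each stacked bar is 1 of the 17 libraries, in order of stage, genotype and replicate. Slc2a1 fills 98.2% to 99.8% of its family in tumors, Pfkfb3 takes 69.4% to 82.1% in ΔEP tumors, and Ldhb takes 34.3% and 38.8% in fl/fl tumor replicates 2 and 3 but 1.43% in replicate 1.

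Between genotypes, which asks what loss of Zfp36 changed at a given stage, 0 members were called in mock skin (38 tested, against 0% of all genes), treated skin (41 tested, against 0% higher and 0.00616% lower) or tumors (36 tested, against 0.0213% higher and 0.00711% lower) by edgeR's quasi-likelihood test. Members with an unadjusted p under 0.05 numbered 0, 4 and 13, beside 253 of 15920, 901 of 16232 and 1975 of 14067 genes. DESeq2 and edgeR's exact test gave 0 and 0 in mock skin, 0 and 0 in treated skin, and 4 and 2 in tumors. The genes they called in all were 3 and 2 in mock skin, 36 and 44 in treated skin, and 366 and 328 in tumors. The 4 members with an unadjusted p under 0.05 in treated skin were Hk2 (0.50), Pgk1 (0.52), Pgam1 (0.52) and Pdk2 (−0.88 log2).

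In tumors 27 of 36 members had a log2 difference above 0, with a median of 0.61 against −0.02 over all genes. In 15 of the 36 (41.7%) every ΔEP tumor was above every fl/fl tumor, against 13.6% of all genes, and in 0 every ΔEP tumor was below, against 4.23%. The 15 were Slc2a1, Hk1, Hk2, Pfkm, Pfkp, Pfkfb1, Pfkfb3, Pfkfb4, Pgam1, Eno1, Slc16a3, Bsg, Pgm2, Gys1 and Gbe1. The largest difference among them was that of Pfkfb3, at 2.27 (SE 0.28, edgeR adjusted p = 0.0787), followed by Slc16a3 at 2.15 (SE 0.71, adjusted p = 0.262), Pfkfb4 at 1.31 (SE 0.49, adjusted p = 0.301) and Slc2a1 at 1.21 (SE 0.35, adjusted p = 0.232). Pkm, Ldha and Gapdh overlapped through fl/fl replicate 1, and Slc16a1 differed by −0.06 (SE 0.18, edgeR adjusted p = 0.912). Ldhb and Pdk4 had the largest negative differences, −2.58 (SE 0.77, edgeR adjusted p = 0.243) and −2.15 (SE 0.90, adjusted p = 0.34), also with overlap through fl/fl replicate 1.

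Leaving out fl/fl tumor replicate 1 changed this count from 0 to 15, which was 13 higher against 7.32% of all genes and 2 lower against 9.58%. That fit, which leaves 2 fl/fl tumors, called Slc2a1 (1.77, SE 0.19, edgeR adjusted p = 0.000244), Hk1 (1.74), Pfkl (2.05), Pfkfb3 (2.63, SE 0.21, adjusted p = 5.66e-05), Tpi1 (1.37), Gapdh (1.12), Pgk1 (1.15), Pgam1 (1.53), Eno1 (1.66), Pkm (1.73), Ldha (1.63), Slc16a3 (3.59, SE 0.38, adjusted p = 0.000257) and Pgm2 (1.11) higher in ΔEP tumors. Ldhb (−3.06, SE 0.21, edgeR adjusted p = 2.6e-05) and Pdk4 (−2.61, SE 0.54, adjusted p = 0.00767) were lower. The keratinocyte marker Col17a1 divided the fl/fl tumors in the same places, at 2190, 523 and 445 CPM beside 1850 to 2370 CPM in ΔEP tumors. The markers Epcam and Trp63 did not follow it, with Epcam lowest in fl/fl replicate 1. The part of the markers in these differences was not tested.

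**Figure D5:**
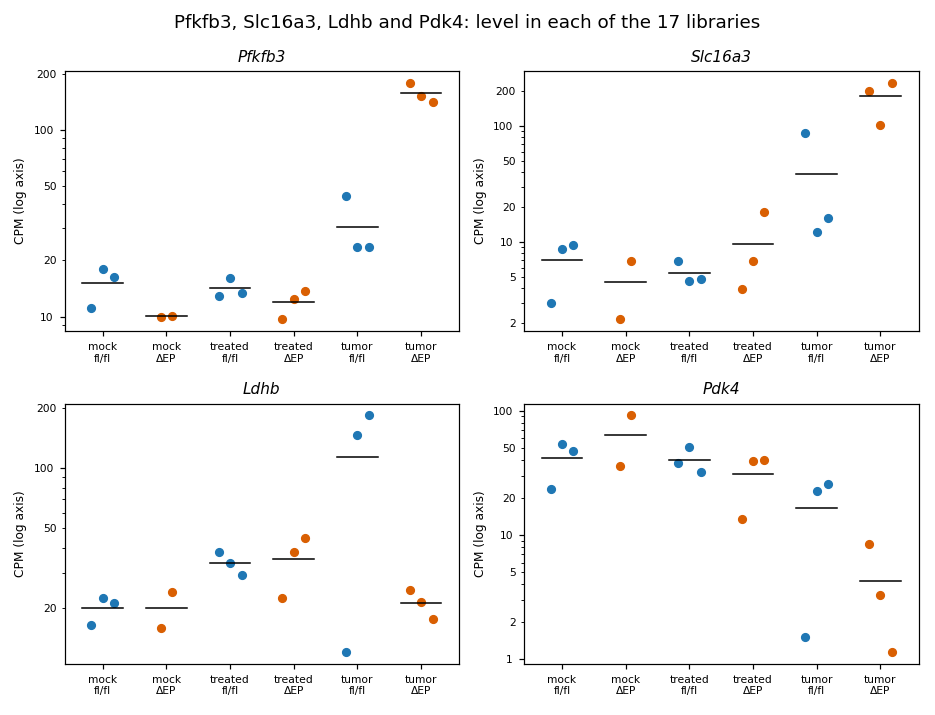
Level of Pfkfb3, Slc16a3, Ldhb and Pdk4 in CPM, on a log axis, by stage and genotype, with 1 point per library and a line at the group mean (fl/fl blue, ΔEP orange). Pfkfb3 separates ΔEP tumors (141 to 179 CPM) from fl/fl tumors (23.5 to 44 CPM), whereas for Ldhb and Pdk4 fl/fl tumor replicate 1 (12 and 1.5 CPM) lies with or below the ΔEP tumors and the other fl/fl tumors lie above them.

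Whether the change from skin to tumor itself differed between genotypes was tested as an interaction. Of 41 members tested against treated skin, 1 was called, Pfkfb3, whose rise in ΔEP mice exceeded that in fl/fl mice by 2.59 on the log2 scale (SE 0.35, edgeR adjusted p = 0.0476), against 0.0118% of all genes called higher and 0% lower. Under the 19 alternatives the value stayed between 2.46 and 2.92 and the adjusted p ran from 1.99e-09 to 0.192. The call was kept in 5 of them, among them adjusted p alone, which could not lose it. It was lost in 14, including 11 of the 12 fits that left out a library. The exception was the fit without fl/fl tumor replicate 1, in which 6 members were called, 5 higher against 3.49% of all genes and 1 lower against 4.04%: Pfkl (1.81), Pfkfb3 (2.92), Pgam1 (1.05), Pkm (1.40), Slc16a3 (2.85) and, lower, Ldhb (−3.07). Each of the other 11 libraries, left out in turn, gave 0. Against mock skin 0 of 41 members were called by edgeR (0% of all genes), with 4 at an unadjusted p under 0.05 (1423 of 17388 genes) and 1 called by DESeq2, and the Pfkfb3 interaction was 2.91 (SE 0.47, edgeR adjusted p = 0.535). Without fl/fl tumor replicate 1 the edgeR count was 2, 1 in each direction, with 23 genes called in all. DESeq2 called 31 genes in all. The interaction shares its libraries with the comparisons above.

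Genes around the pathway were read from lists chosen, like the members, with earlier results of these data known. In the pentose phosphate branch, which makes NADPH and ribose, 3 of the 8 genes tested in fl/fl and 3 of 9 in ΔEP mice were called higher in tumors than in treated skin and 0 lower. They were G6pdx, the entry enzyme (1.18 and 1.56), Pgd (1.58 and 1.74) and Tkt, transketolase (1.62 and 1.88). Of the regulators of the pathway 11 and 10 were tested, with 2 higher in both genotypes and 3 lower in fl/fl and 2 lower in ΔEP mice. Hif1a, the oxygen-regulated subunit of HIF-1, was at 175 ± 17.1 CPM in treated and 1060 ± 278 CPM in tumor fl/fl libraries and at 340 ± 221 CPM and 1590 ± 29.1 CPM in ΔEP libraries (SD, n = 3), log2 fold changes of 2.56 (SE 0.24, edgeR adjusted p = 0.00121) and 2.15 (SE 0.41, adjusted p = 0.00508). Epas1, the HIF-2 subunit, was 1.15 and 1.12 higher. Txnip, an arrestin-family protein that restrains glucose uptake, fell from 308 ± 136 to 17.8 ± 4.51 CPM in fl/fl and from 129 ± 82 to 13.3 ± 3.29 CPM in ΔEP mice (SD, n = 3), by 4.10 (SE 0.37, edgeR adjusted p = 0.00119) and 3.35 (SE 0.43, adjusted p = 0.00111) on the log2 scale. Ppargc1a, a coactivator of mitochondrial genes, was 2.25 and 3.32 lower, and Mlxipl, the glucose-sensing factor ChREBP, was lower in fl/fl mice (−2.66).

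Among other glucose and monocarboxylate transporters, 2 of 10 were higher and 1 lower in fl/fl, and 2 of 9 higher and 3 lower in ΔEP mice. Slc16a7 (MCT2), a high-affinity monocarboxylate transporter, went the opposite way to Slc16a1, from 157 ± 56.2 to 6.94 ± 5.46 CPM in fl/fl and from 161 ± 61.9 to 2.8 ± 1.65 CPM in ΔEP mice (SD, n = 3), with log2 fold changes of −4.40 (SE 0.53, edgeR adjusted p = 0.00246) and −5.98 (SE 0.50, adjusted p = 0.000214). The urate and hexose transporter Slc2a9 was higher in both (2.72 and 2.38). Emb, the other MCT chaperone (1.37), was higher in fl/fl and Slc2a4 (1.01) in ΔEP mice, while Slc16a4 (−2.11) and Slc2a8 (−1.15) were lower in ΔEP mice. Of the other isozymes 8 were tested in each genotype, and Gpd2, the mitochondrial glycerol phosphate dehydrogenase, was higher in both (1.61 and 2.17), with Gapdhs lower in fl/fl (−1.37). Of the 8 genes tested for pyruvate entry, Dlat, a dehydrogenase complex subunit, was higher in fl/fl (1.40) and Pdpr lower in ΔEP mice (−1.03). In the glycogen list 4 of 12 genes were lower in fl/fl, the phosphorylase kinase subunits Phka1 (−1.90) and Phka2 (−1.01) and the glycogen-targeting subunits Ppp1r3b (−2.89) and Ppp1r3c, at 5.13 ± 3.35 CPM in treated skin and 0.109 ± 0.189 CPM in tumors (SD, n = 3), and 1 of 10, Pygm (−2.01), was lower in ΔEP mice.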

How the data were processed

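Gene counts per library were taken as the authors deposited them, 1 table with 18 columns, 3 for each of 6 groups, with group and replicate from the labels. The submitters' notes name Trimmomatic 0.36, STAR 2.5.3, HTSeq 0.9.1 and DESeq2, without their settings, and the labels give the mm10 build. Libraries were made with a low-input kit from sorted cells. Whether strand was used in counting is not given in the sources used here, so counts of members whose exons overlap another gene (Slc2a1, Slc2a12, Hk1, Hk3, Gpi1, Pfkm, Pfkp, Pfkfb1, Pfkfb2, Tigar, Aldoa, Tpi1, Gapdh, Pkm, Pdha1, Pgm2, Gys1) may include reads of that gene, and Gapdh, Ldha, Pgam1, Eno1 and other members with near-identical pseudogene copies are uncertain. The authors' lists of differential genes, which hold their fold changes and p-values, were not used.

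Replicates 2 and 3 of mock ΔEP had identical columns, which entered once, leaving 17 libraries. Each comparison was fitted in edgeR 4.0.16 (R 4.3.3) on the whole table, with only the groups compared, the filterByExpr filter, TMM scaling and the quasi-likelihood F test, two-sided. Benjamini-Hochberg adjustment ran over all genes tested, and calls needed an adjusted p under 0.05 and a log2 fold change beyond 1. Standard errors are the log2 fold change divided by the square root of F. Levels are CPM on TMM-scaled libraries, and levels of different genes were compared only per kilobase of annotated exon (GENCODE M21, GRCm38). Ratios of low counts carry an exact 95% interval, which covers counting error only.

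The members and all lists were chosen with earlier results of these data known. Members called in any comparison, or leading their role by CPM per kilobase, are described in every library, and the rest by ranges. Same-numbered libraries did not deviate together in all pairs of any comparison with 3 pairs, so numbers were not taken to pair samples. In comparisons with mock ΔEP, which have 2 pairs, both pairs correlated above 0, up to 0.782 between genotypes in mock skin. The 2 mock ΔEP libraries deviate from their mean by mirrored amounts, so these pairs are not independent of each other. The labels do not say that replicates are separate animals, and p-values measure the spread between these libraries. Alternatives were DESeq2 1.42.0, the exact test of edgeR, all libraries in a single fit, scaling by RLE or by library totals alone, no low-count filter, the replicate number as a block, adjusted p alone, identical columns kept apart, and each library left out. Another, chosen after seeing the data, left out replicate 1 of both mock groups. Adjusted p alone reused the main fit without the fold threshold, so a called member could not lose its call there. The fits were also run on simulated counts drawn with a single fixed dispersion for all genes. Some groups here spread widely between libraries, so that run does not show how the fits behave on them. Totals per library, 2808550 to 9617985, limit the genes of a few CPM most. Protein sequences were not analysed here.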

Additional observations from a re-analysis of the deposited data

Results flagged for a closer look

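The tumor change of Pfkfb3 differed between genotypes. Its interaction of genotype with tumor against treated skin was 2.59 on the log2 scale (SE 0.35, adjusted p = 0.0476 in the quasi-likelihood test of edgeR), with all 3 ΔEP tumors (179, 152 and 141 CPM) above all 3 fl/fl tumors (44, 23.6 and 23.5 CPM) and the treated skin of both genotypes between 9.66 and 16.2 CPM. The call was lost in 14 of 19 alternatives, while the value stayed between 2.46 and 2.92. No cause of the difference was tested.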

How the results depend on the processing

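Among the alternatives that kept every library, the following moved a count of members called by over 1.5 times. The others ran from 14 to 22 for tumor against treated skin in fl/fl mice (20), 22 to 30 in ΔEP mice (25) and 17 to 26 for tumor against mock skin in ΔEP mice (23). For fl/fl tumors against mock skin (6) DESeq2 gave 21, the edgeR exact test 19, all libraries in a single fit 22 and no low-count filter 19. For treated against mock ΔEP skin (0) no low-count filter gave 2. For genotypes in tumors (0) DESeq2 gave 4, the exact test 2, a single fit 1, library totals alone 1 and no low-count filter 12. For the interaction against treated skin (1) a single fit gave 0, RLE scaling 0 and no low-count filter 4, and for that against mock skin (0) DESeq2 gave 1, a single fit 1 and no low-count filter 3. The genes called in all moved as well. For fl/fl tumors against mock skin they were 632 in the main fit and then 2201, 2007, 3205 and 2595, in the order above. For treated against mock ΔEP skin they went from 0 to 212. For genotypes in tumors they were 4 and then 366, 328, 122, 11 and 1393. For the interaction against treated skin they were 2 and then 0, 1 and 1003, and against mock skin 0 and then 31, 2 and 188. The causes were not tested.

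With 1 library left out, the counts ran from 8 to 20 (tumor against treated skin, fl/fl), 21 to 26 (ΔEP), 1 to 18 (tumor against mock skin, fl/fl), 8 to 26 (ΔEP), 0 to 6 (treated against mock skin, fl/fl), 0 to 15 (genotypes in tumors), 0 to 6 (interaction against treated skin) and 0 to 2 (against mock skin). They were 0 throughout for treated against mock skin in ΔEP mice and for genotypes in mock and treated skin. An arm left with 1 library was assumed to vary like the other.

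The replicate numbers were not taken to pair the samples, and deviations of same-numbered libraries correlated between −0.546 and 0.782. In mock skin, however, same-numbered libraries of the genotypes correlated at 0.782 and 0.569, and treated and mock ΔEP libraries at 0.569 and 0.141. Within each of these comparisons the values are not independent, because the mock ΔEP libraries deviate from their mean by mirrored amounts. With the replicate block the counts were 16 and 25 (tumor against treated skin, fl/fl and ΔEP), 5 and 17 (tumor against mock skin), 0 and 1 (treated against mock skin), and 0 for all genotype comparisons and both interactions. For the comparisons of stages the block called 1831 and 3879, 244 and 938, and 0 and 43 genes in all, in that order. The main fits called 2764 and 3973, 632 and 2144, and 0 and 0. For genotypes in mock skin the block called 110 genes in all, against 0 in the main fit. Without replicate 1 of both mock groups, chosen after seeing the data, genotypes in mock skin and the interaction against mock skin stayed at 0.

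Refits kept the call of a called member in 883 cases and lost it in 169, members not called gained a call in 188 cases, and 0 of these values reversed. The 883 include adjusted p alone, where a call could not be lost. On the given strand alone, ACGTG stood in 17 of 61 promoter windows against 13.6% of all promoters and GCGTG in 19 against 20%, and with basic transcripts TATTTAT stood in 16 of 45 3′ untranslated regions against 26.7% of genes. Among promoters of protein-coding genes the given-strand shares were 14.6% for ACGTG and 24.6% for GCGTG. Depth limits Eno2, Eno3, Pgam2, Slc2a3, Slc2a6, Hk3 and Fbp2, which rest on few counts.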
